A study of Rattus norvegicus with 10 samples.

Results

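The proteasome subunit genes were followed in fetal rat kidney as a set of 46 probe sets, standing for 43 genes, out of 15923 probe sets and 10412 singly named genes on a 1-colour Affymetrix rat array. They were taken as every probe set with a single annotated gene symbol that starts with Psm, then 1 letter from a to g and a number. The hyperinsulinemic group held 5 kidney samples from growth-restricted fetuses (replicates 6 to 10) whose mothers, pregnant Wistar rats of 200 to 280 g on a normal diet, had carried under the skin a 2 mm piece of a slow-release insulin implant, placed a week before mating and again a week after it. The normal group held 5 kidney samples from fetuses (replicates 1 to 5) of untreated mothers on a regular diet, for which the labels give no strain. All kidneys were taken on day 22 of gestation, close to birth, and each sample was run on 1 array. The labels name no litter, fetal sex, batch or pooling, so p-values describe the spread between arrays alone, part of which may be technical, and they would be too small if litters were shared. The implant acts on the mother, and the labels give no insulin or glucose value of a fetus.

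The proteasome is the main protease of the cytosol and nucleus and degrades proteins that carry ubiquitin chains. Its 20S core is a barrel of stacked rings, outer rings of alpha subunits (Psma genes) that gate the entry and inner rings of beta subunits (Psmb genes) that hold the proteolytic sites. The 19S regulatory particle caps the core: its ATPases (Psmc) unfold the substrate and its other subunits (Psmd) bind and remove ubiquitin. In cells exposed to interferon, Psmb8, Psmb9 and Psmb10 replace the constitutive catalytic subunits Psmb5, Psmb6 and Psmb7 to give the immunoproteasome, and Psme1 with Psme2 forms an alternative cap. In kidney, proteasomes take part in the turnover of transporters and signalling proteins of the tubule and of the glomerular filter.

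No proteasome probe set passed the test between hyperinsulinemic and normal kidneys, and the signals of the groups overlapped for each. Of the 46 probe sets, 44 (41 genes) passed a filter on dim signals, which asked for the 40th percentile of an array, a signal of 79.2 to 87.6, on at least 5 of the 10 arrays. None of the 44 reached an adjusted p of 0.05 (limma on log2(signal + 16), Benjamini-Hochberg over 9601 probe sets), where the background was 1 of 9601, or 0.0104%. None reached an unadjusted p of 0.05, against 515 probe sets or 5.36% of all tested, and none had groups that did not overlap, against 100 or 1.04%. The smallest unadjusted p was 0.0921 and the smallest adjusted p 0.941 (limma). Log2 differences, hyperinsulinemic minus normal, ran from -0.15 for Psma3 to 0.13 for Psmd7. The 95% interval of the difference stayed within 1.5-fold either way for all 44 probe sets and within 1.2-fold for 36, against 9455 and 5787 of the 9601. Signs were uneven, with 29 higher and 15 lower, or 65.9% higher against 50.9% of all tested, and the median log2 difference was 0.023 against 0.0020. This rested on single arrays: 22 of 44 were higher without hyperinsulinemic replicate 10, 24 without replicate 6, 33 without replicate 7, and 23 with the mean liver signal as a covariate. Values after ± are SDs of signals (n = 5 each) or standard errors of log2 differences.

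**Figure D1:**
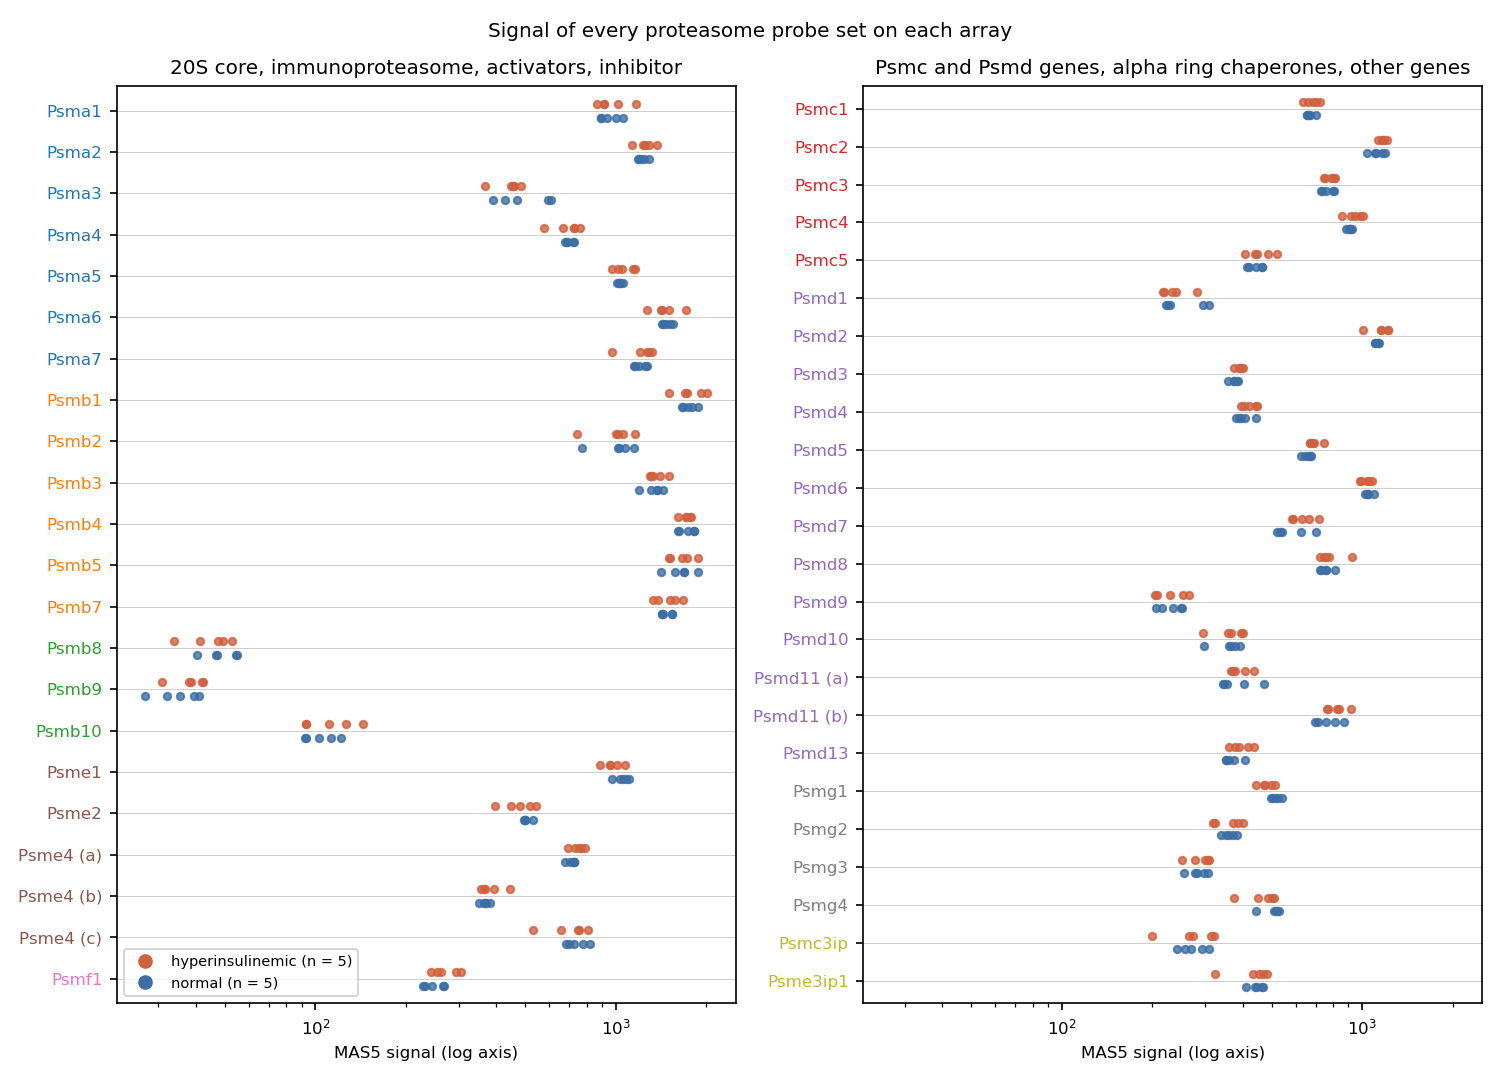
MAS5 signal (log axis) of all 46 proteasome probe sets on each of the 10 arrays, by gene, with hyperinsulinemic arrays in orange above normal arrays in blue. The groups overlap for every probe set, and Psmb8 and Psmb9 lie below the dim-signal filter.

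The arrays had been scaled alike, with trimmed means of 250.04 to 250.05, and 9 of 10 kidney markers were measured, all above the filter. Their summed signals were 8393 to 9433 in hyperinsulinemic and 7721 to 8726 in normal arrays. Of their 12 tested probe sets, 7 were higher and 5 lower, with 2 at an unadjusted p under 0.05 and none at an adjusted one. These were Aqp2 (log2 difference 0.45, limma unadjusted p = 0.00118) and Slc5a2 (-0.29, 0.0104). Hyperinsulinemic replicate 6 stood apart, with a median correlation of 0.981 with the other arrays against 0.985 to 0.988, and it had the highest Alb signal, 1742. Liver markers summed to 657 to 5170 in hyperinsulinemic and 462 to 1957 in normal arrays. All 6 tested liver probe sets were higher in the hyperinsulinemic group (median log2 difference 1.03), 4 of them at an unadjusted p under 0.05 and none at an adjusted one, while Apoa1, Apoa2, Fga and Ahsg stayed below the filter. Erythroid markers, of which 4 of 6 were measured, summed to 6036 to 8091 in hyperinsulinemic and 5129 to 6606 in normal arrays. Most of this was Hbb, at 5201 to 7099 in hyperinsulinemic and 4525 to 5805 in normal arrays. Of the 4 tested erythroid probe sets, 3 were higher and 1 lower, with Epor below the filter. The lower one, of Slc4a1, alone had an unadjusted p under 0.05 (log2 difference -0.24, limma unadjusted p = 0.0229). The other Slc4a1 probe set was at 0.074. Xist, the X-inactivation transcript of female cells, was at 42.4 to 70.5 on the hyperinsulinemic arrays and 0.80 to 2.0 on the normal ones. Sry, on the Y chromosome, was at 3.7 to 25.6 on the hyperinsulinemic arrays and 9.8 to 24.2 on the normal ones. Both genes were below the filter, and Kdm5d and Ddx3y were not measured. A difference in fetal sex, read here from Xist alone, cannot be told apart from that between the mothers. Leukocyte markers, of which 13 of 13 were measured, summed to 1496 to 1610 in hyperinsulinemic and 1427 to 1712 in normal arrays, with Ptprc, Cd3e, Cd79b, Itgam and Tyrobp below the filter. The brightest of them was Lyz2 (log2 difference -0.11). Of the 8 tested leukocyte probe sets, 5 were higher and 3 lower (median log2 difference 0.12), none at an unadjusted p under 0.05.

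Of the 7 probe sets of the alpha ring, 4 were higher and 3 lower, with a median log2 difference of 0.0013. Psma3, an alpha subunit, had signals of 367, 456, 460, 449 and 485 in hyperinsulinemic replicates 6 to 10, against 593, 428, 608, 470 and 390 in normal replicates 1 to 5. Normal replicates 1 and 3 were high and replicate 5 was among the low arrays, so the groups overlapped. Its mean was 443 ± 44.7 in hyperinsulinemic and 498 ± 98.0 in normal kidneys, a log2 difference of -0.15 ± 0.11 (limma, adjusted p = 0.973). That difference was -0.071 without normal replicate 3, -0.079 without normal replicate 1, -0.082 without hyperinsulinemic replicate 6, -0.23 without normal replicate 5 and -0.018 with the mean liver signal as a covariate. Psma5, another subunit of the ring, had 1162, 972, 1017, 1050 and 1139 in hyperinsulinemic kidneys, against 1029, 1053, 1027, 1012 and 1032 in normal ones. The normal arrays were close together inside the range of the hyperinsulinemic arrays, and the means were 1068 ± 80.8 in hyperinsulinemic and 1031 ± 14.7 in normal kidneys (log2 difference 0.047 ± 0.056, limma adjusted p = 0.973). For the other 5 alpha subunits, Psma1, Psma2, Psma4, Psma6 and Psma7, log2 differences lay between -0.020 and 0.033.

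The 6 measured constitutive beta subunits were closer still, 4 higher and 2 lower, with log2 differences from -0.018 (Psmb2) to 0.032 (Psmb3). Psmb3, a structural beta subunit, had 1502, 1298, 1327, 1402 and 1308 in hyperinsulinemic kidneys and 1434, 1373, 1313, 1367 and 1198 in normal kidneys. Its log2 difference was 0.032 ± 0.060 (limma, adjusted p = 0.982), and the groups overlapped over most of their ranges. Psmb5, which carries the chymotrypsin-like activity, had 1732, 1509, 1521, 1662 and 1879 in hyperinsulinemic kidneys and 1411, 1692, 1570, 1685 and 1882 in normal kidneys. The groups covered nearly the same range, with a log2 difference of 0.012 ± 0.079 (limma, adjusted p = 0.995). Psmb7, which carries the trypsin-like activity, had 1576, 1332, 1384, 1510 and 1671 in hyperinsulinemic kidneys and 1424, 1537, 1423, 1539 and 1439 in normal kidneys. The normal arrays again lay inside the hyperinsulinemic range, with a log2 difference of 0.017 ± 0.064 (limma, adjusted p = 0.990). Over the 13 core probe sets, 8 were higher and 5 lower with a median of 0.012, and the split became 6 and 7 with array weights, with the Gapdh ratio as a covariate and with the mean liver signal as one (medians -0.00043, -0.0031 and -0.0064). With 1 array left out it turned further: 3 were higher and 10 lower without hyperinsulinemic replicate 6 (median -0.0061) and without replicate 10 (-0.017), 5 and 8 without normal replicate 5 (-0.0058), and 11 and 2 without hyperinsulinemic replicate 7 (0.050), so the core had no stable direction. Psmb6 shares its probe set with a second symbol and was not analysed here.

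The immunoproteasome subunits had dim signals in both groups. Psmb8 had 49.1, 33.7, 41.2, 47.5 and 52.8 in hyperinsulinemic kidneys, against 54.3, 40.3, 47.2, 46.8 and 54.7 in normal kidneys. Psmb9 had 41.9, 38.6, 42.1, 37.9 and 30.8 in hyperinsulinemic kidneys, against 27.1, 35.4, 39.4, 41.0 and 32 in normal kidneys. Both were below the filter on all arrays, both overlapped between groups, and neither was tested in the fit. Psmb10 had 144, 93.2, 93.2, 127 and 111 in hyperinsulinemic kidneys, against 103, 93.0, 113, 122 and 92.7 in normal kidneys. Hyperinsulinemic replicate 6 was the highest and the groups overlapped, with a log2 difference of 0.091 ± 0.12 (limma, adjusted p = 0.973).

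The log2 signal of Psmb7 was subtracted from that of Psmb10 on each array to compare the balance of this pair between groups. It averaged -3.55 ± 0.18 in hyperinsulinemic and -3.63 ± 0.15 in normal kidneys (SD, n = 5 each), a difference of 0.074 (exact two-sided permutation p = 0.5, adjusted p = 0.5 over 2 pairs). With 5 against 5 arrays the smallest p this test can give is 0.00794, and the value bears only on the difference between groups, since signals of different probe sets are not on 1 scale. The other pair, Psmb8 with Psmb5, says nothing about the balance because Psmb8 was below the filter on all arrays, and its difference is not read here. Of the interferon and antigen presentation genes, 17 of 23 were measured and 7 passed the filter, with 8 probe sets, 3 higher and 5 lower. None of the 8 reached an unadjusted p of 0.05, which at a background of 5.36% is too few probe sets to read anything from. Tap1 and Tap2, the peptide transporter that receives proteasome products, were below the filter. B2m, the light chain of class I molecules, had in 1 of its 2 probe sets 1229, 882, 1060, 1069 and 1124 in hyperinsulinemic kidneys, against 1135, 1157, 1131, 1219 and 1214 in normal kidneys (log2 difference -0.13 ± 0.074, limma adjusted p = 0.941), and its other probe set had a log2 difference of -0.031. Hyperinsulinemic replicate 7 was its lowest array and replicate 6 its highest, so the groups overlapped.

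The Psmc and Psmd subunits of the 19S regulatory particle were mostly a little higher in hyperinsulinemic kidneys, and none passed the test. All 5 ATPases measured and 8 of 10 probe sets of the Psmd subunits were higher, 13 of 15 in all, against 50.9% of all tested. Their median log2 difference was 0.051, against 0.0020 over all tested probe sets. Psmc2 had 1214, 1162, 1128, 1183 and 1160 in hyperinsulinemic kidneys, against 1037, 1188, 1107, 1165 and 1115 in normal kidneys (log2 difference 0.060 ± 0.051, limma adjusted p = 0.973). Normal replicate 1 was the lowest array, and normal replicates 2 and 4 lay among the hyperinsulinemic values. Psmc4, another ATPase of the ring, had 858, 919, 944, 1003 and 984 in hyperinsulinemic kidneys, against 909, 902, 882, 913 and 927 in normal kidneys (log2 difference 0.051 ± 0.053, limma adjusted p = 0.973). Here hyperinsulinemic replicate 6 was the lowest of the 10 arrays and the other 4 were above at least 4 of the 5 normal ones.

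Psmd7, a lid subunit that pairs with the deubiquitinase Psmd14, had 721, 587, 585, 628 and 666 in hyperinsulinemic kidneys, against 540, 532, 522, 703 and 625 in normal kidneys. The first 3 normal arrays were the lowest of all, while normal replicates 4 and 5 lay inside the hyperinsulinemic range. Its log2 difference of 0.13 ± 0.086 was the highest of the set (limma, unadjusted p = 0.162, adjusted p = 0.973), which became 0.19 without normal replicate 4 (limma, unadjusted p = 0.0256, adjusted p = 0.883), 0.083 without hyperinsulinemic replicate 6 and 0.00078 with the mean liver signal as a covariate. Psmd5, a chaperone of 19S base assembly that is not part of the finished particle, had 744, 669, 671, 689 and 687 in hyperinsulinemic kidneys, against 647, 661, 625, 671 and 676 in normal kidneys. Replicate 6 was high among the hyperinsulinemic arrays, and the remaining 4 overlapped only the top of the normal range (log2 difference 0.075 ± 0.051, limma adjusted p = 0.973). The other base chaperones, Psmd9 and Psmd10, had log2 differences of 0.0014 and 0.015, and Psmd10 lies on the X chromosome. The exceptions among the Psmc and Psmd subunits were the scaffold subunit Psmd1, at -0.093, and the lid subunit Psmd6, at -0.028. Of the 19S subunits with other symbols, Sem1 was lower, at -0.23, and Adrm1 higher, at 0.17. With each array left out, 12 or 13 of the 15 Psmc and Psmd subunit probe sets were higher. With the mean liver signal as a covariate, 10 of 15 were, against 51.7% of all tested probe sets. The median log2 difference was then 0.0074, against 0.0042 over all tested. The part of liver transcripts in this was not tested beyond these values.

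**Figure D2:**
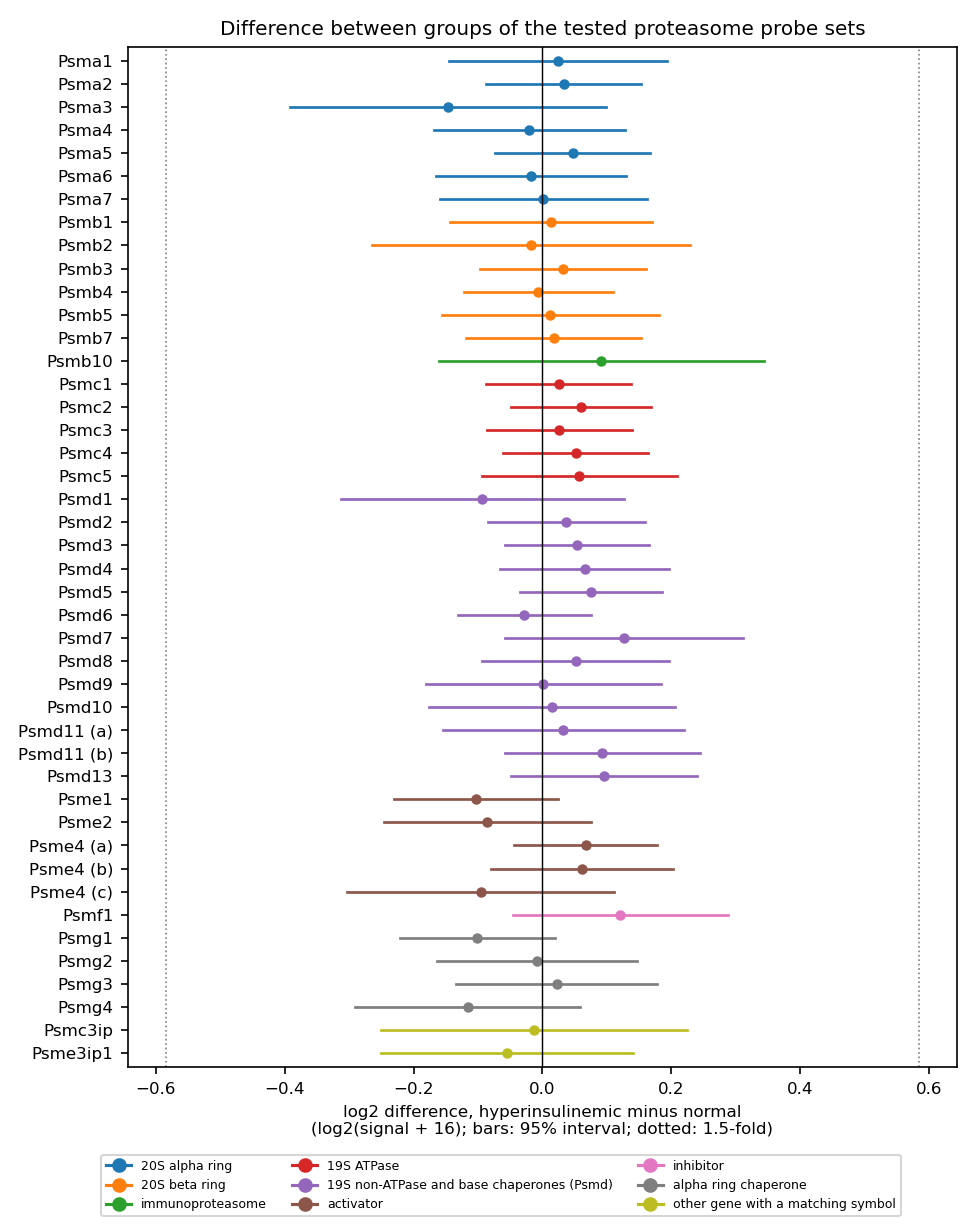
Log2 difference between hyperinsulinemic and normal kidneys (points) with its 95% interval (bars) for the 44 tested probe sets, coloured by class, with dotted lines at 1.5-fold. Every interval crosses 0, and 13 of the 15 Psmc and Psmd subunit points lie to the right of it. The base chaperones Psmd5, Psmd9 and Psmd10, drawn in the colour of the Psmd genes, lie there too.

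A pair of 19S subunits whose genes carry other names gave the smallest p-values among the partner genes, of which 16 of 25 were measured and all 16 tested. Adrm1, the ubiquitin receptor also called Rpn13, had 284, 269, 325, 277 and 285 in hyperinsulinemic kidneys, against 225, 270, 248, 268 and 263 in normal kidneys. A single normal array, replicate 2, exceeded the lowest hyperinsulinemic one, and the log2 difference was 0.17 ± 0.072 (limma, unadjusted p = 0.0346, adjusted p = 0.918). Sem1, a small subunit that helps to assemble the lid, had 1117, 1182, 1663, 1645 and 1618 in hyperinsulinemic kidneys, against 1691, 1715, 1677, 1694 and 1573 in normal kidneys. Hyperinsulinemic replicates 6 and 7 were far below the other 8 arrays, which lay together, and the log2 difference was -0.23 ± 0.10 (limma, unadjusted p = 0.0455, adjusted p = 0.918). Without replicate 6 the Sem1 difference was -0.14 (limma, unadjusted p = 0.134), without replicate 7 -0.16 (0.126) and with the mean liver signal as a covariate -0.12 (0.348), and its unadjusted p was also over 0.05, at 0.0705 to 0.0790, without any 1 of normal replicates 1 to 4. The limma unadjusted p of Sem1 was over 0.05 with other processing too. It was 0.059 with no filter, 0.062 with no intensity trend, 0.11 with array weights and 0.057 with the Gapdh ratio as a covariate. Adrm1 had an unadjusted p of 0.105 without hyperinsulinemic replicate 8, 0.103 without normal replicate 1, 0.0653 without normal replicate 3 and 0.160 with the mean liver signal. Both reach only the unadjusted threshold, which 5.36% of all tested probe sets also reach. Over the partner list, 10 of 21 probe sets were higher and 11 lower, with a median log2 difference of -0.0017. Among them were Nfe2l1, the transcription factor that drives proteasome genes when proteasome activity is short, with log2 differences of -0.062, -0.010 and -0.0068 over its 3 probe sets. The segregase Vcp, which feeds substrates to the proteasome, had a log2 difference of 0.11 ± 0.057 (limma, unadjusted p = 0.0629, adjusted p = 0.934).

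**Figure D3:**
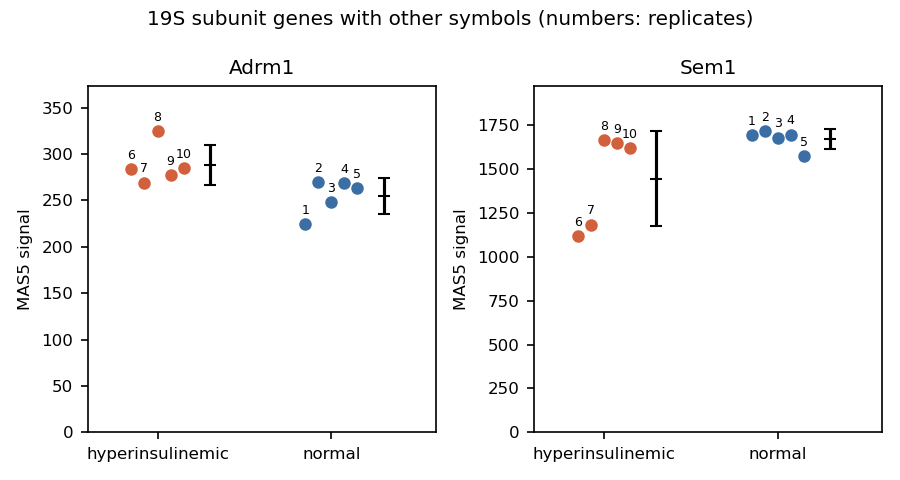
MAS5 signal of Adrm1 and Sem1 on each array, with hyperinsulinemic arrays left of normal ones, replicate numbers above the points and bars for the mean ± SD (n = 5 each). Adrm1 sits slightly higher in the hyperinsulinemic group, and the low Sem1 mean there comes from replicates 6 and 7, at 1117 and 1182.

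The caps and the inhibitor differed in sign, and none passed the test. Psme1, a subunit of the interferon-inducible cap, had 1013, 954, 887, 955 and 1070 in hyperinsulinemic kidneys, against 969, 1084, 1054, 1033 and 1105 in normal kidneys. Of the hyperinsulinemic arrays 3 lay below every normal one, and the means were 976 ± 69.0 in hyperinsulinemic and 1049 ± 52.6 in normal kidneys (log2 difference -0.10 ± 0.059, limma unadjusted p = 0.103, adjusted p = 0.941). Psme2, its partner in the same ring, had 541, 398, 481, 448 and 517 in hyperinsulinemic kidneys, against 500, 499, 497, 531 and 494 in normal kidneys. Hyperinsulinemic arrays lay on both sides of a narrow normal range, with a log2 difference of -0.086 ± 0.075 (limma, adjusted p = 0.973). Psme4, a nuclear cap also known as PA200, had 3 probe sets that disagreed in sign, with log2 differences of 0.067 ± 0.052, 0.061 ± 0.066 and -0.096 ± 0.097. In the third, hyperinsulinemic signals were 806, 753, 747, 657 and 530, against 699, 779, 682, 729 and 819 in normal kidneys, with hyperinsulinemic replicate 10 the lowest. Without that array the difference was -0.0021, so the size of that difference rested on it. Psmf1, an inhibitor that binds the core, had 242, 254, 262, 294 and 305 in hyperinsulinemic kidneys, against 267, 229, 269, 231 and 245 in normal kidneys. Hyperinsulinemic replicates 9 and 10 lay above all normal arrays and the other 3 among them (log2 difference 0.12 ± 0.078, limma unadjusted p = 0.142, adjusted p = 0.969).

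Of the 4 chaperones that build the alpha ring, 3 were lower in hyperinsulinemic kidneys and 1 was higher (median log2 difference -0.055). Psmg1, the smallest unadjusted p of the set, had 443, 471, 477, 499 and 513 in hyperinsulinemic kidneys, against 523, 516, 541, 503 and 496 in normal kidneys. The lowest 3 arrays were hyperinsulinemic, the highest 3 were normal, and the means were 480 ± 26.8 in hyperinsulinemic and 516 ± 17.7 in normal kidneys (log2 difference -0.10 ± 0.056, limma unadjusted p = 0.0921, adjusted p = 0.941). Psmg4 had 501, 375, 452, 510 and 486 in hyperinsulinemic kidneys, against 508, 519, 528, 516 and 444 in normal kidneys (log2 difference -0.12 ± 0.082, limma adjusted p = 0.973). Hyperinsulinemic replicate 7 and normal replicate 5 were low in their groups. Psmg2 and Psmg3, which act beside them, differed by -0.0085 and 0.022 on the log2 scale. Pomp, which matures the beta ring and was in the partner list, had 1640, 1300, 1523, 1686 and 1667 in hyperinsulinemic kidneys, against 1568, 1551, 1573, 1527 and 1571 in normal kidneys, with hyperinsulinemic replicate 7 alone at the bottom.

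The symbol pattern also took in Psmc3ip, a cofactor of meiotic recombination, and Psme3ip1, a protein that binds the Psme3 cap. Psmc3ip had 199, 273, 313, 322 and 264 in hyperinsulinemic kidneys, against 269, 243, 257, 293 and 310 in normal kidneys (log2 difference -0.013 ± 0.11, limma adjusted p = 0.997). Psme3ip1 had 324, 467, 454, 432 and 483 in hyperinsulinemic kidneys, against 463, 441, 445, 468 and 411 in normal kidneys (log2 difference -0.055 ± 0.091, limma adjusted p = 0.978). Both were lowest in hyperinsulinemic replicate 6 and otherwise overlapped. Without this pair, 29 of 42 probe sets were higher, with a median log2 difference of 0.025.

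Within the hyperinsulinemic group, 1 array was low for most core genes. Hyperinsulinemic replicate 7 was the lowest of the 10 arrays for 9 of 13 core probe sets and for 16 of all 44, against 10.7% of all tested probe sets, and 12 of 13 core probe sets lay below their own mean there. On average its core signals were 0.14 below their means on the log2 scale, against 0.022 above for the median of all tested probe sets. Psmb2, a structural beta subunit, had 742 in replicate 7 and 1002 to 1162 in the other hyperinsulinemic arrays, against 773 to 1148 in normal arrays. Psma7, an alpha subunit, had 975 in replicate 7 and 1202 to 1318 in the others, against 1152 to 1269 in normal arrays. Psma1 went the other way, with 1165 in replicate 7, its highest array, and 864 to 1018 in the other hyperinsulinemic arrays, against 891 to 1058 in normal arrays. Normal replicate 5 had 11 of 13 core probe sets below their mean, by 0.070 on average. Hyperinsulinemic replicate 6 was the highest array for 17 of the 44 probe sets and replicate 10 for 9, against 15.2% and 13.3% of all tested.

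**Figure D4:**
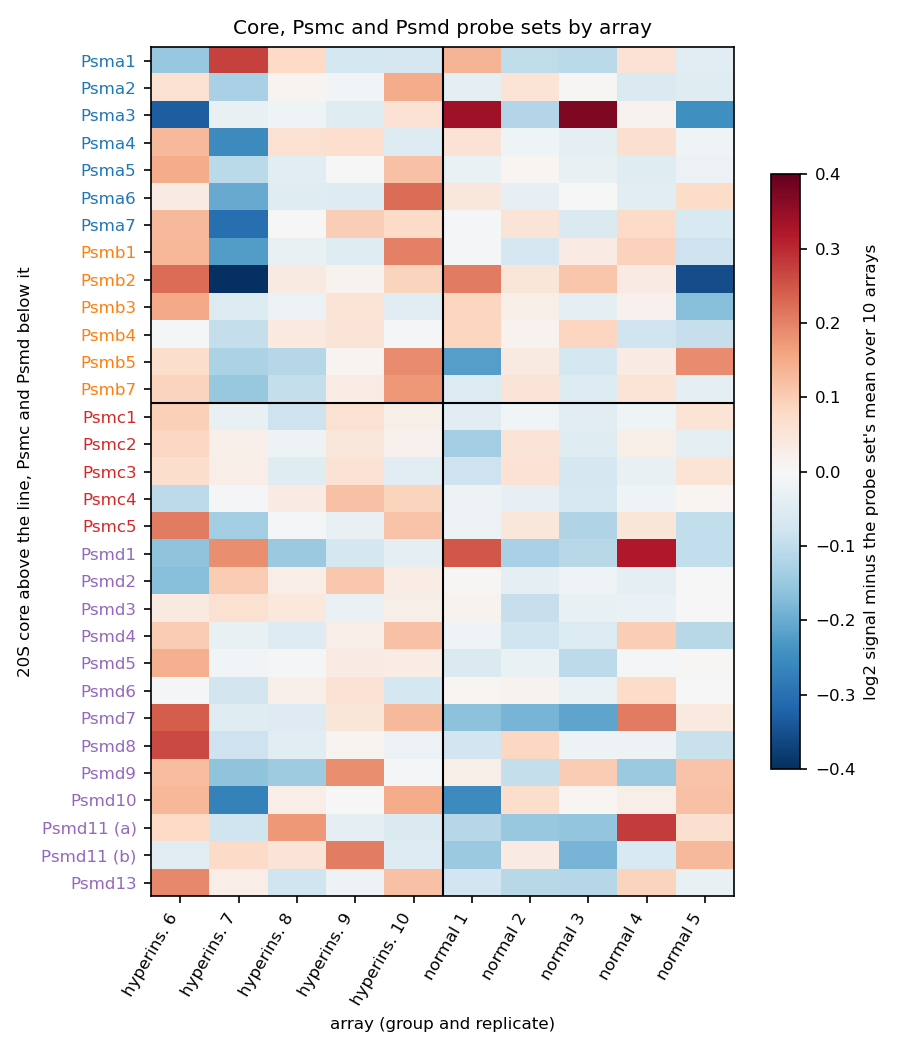
Log2 signal of 13 core (above the line) and 18 Psmc and Psmd probe sets (below it) minus each probe set's own mean over 10 arrays, with hyperinsulinemic arrays left of normal ones. The column of hyperinsulinemic replicate 7 is low for 12 of 13 core probe sets, the exception being Psma1, and the Psmc and Psmd rows do not follow it as a block.

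The ratio of the 3' to 5' Gapdh control signals, a sign of RNA integrity, was 1.04 in hyperinsulinemic replicate 7, inside the 1.03 to 1.18 of its group and the 1.02 to 1.14 of the normal group, and its median correlation with the other arrays was 0.987. The median SD of the core probe sets on the log2 scale was 0.15 in hyperinsulinemic and 0.072 in normal kidneys, against 0.13 in hyperinsulinemic and 0.11 in normal kidneys over all tested probe sets. The SD was larger in the hyperinsulinemic group for 9 of 13 core probe sets, or 69.2%, against 62.7% of all tested. Without hyperinsulinemic replicate 7 it was larger for 6 of 13, or 46.2%, against 59.2% of all tested. The median in hyperinsulinemic kidneys was then 0.094, against 0.13 over all tested. For the 18 Psmc and Psmd probe sets the median SD was 0.11 in hyperinsulinemic and 0.076 in normal kidneys, with 10 of 18 (55.6%) larger in the former. Without hyperinsulinemic replicate 6 the median was 0.070 in hyperinsulinemic kidneys, with 7 of 18 (38.9%) larger there, against 55.2% of all tested.

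Core subunits varied together across arrays once the group means were taken out, and less so without the same array. Over the 78 pairs of 13 core probe sets the median Pearson correlation across 10 arrays was 0.41, with 73.1% of pairs above 0, against 0.19 among the 18 Psmc and Psmd probe sets, 0.12 between these and the core and 0.0011 over all tested probe sets. All values of an array share its scaling and its RNA, so these correlations are a description. Without hyperinsulinemic replicate 7 the core median was 0.15, with 60.3% of pairs above 0, against 0.17 among the Psmc and Psmd probe sets. Without replicate 6 these medians were 0.39 and 0.19, and without both arrays 0.11 and 0.22. The higher median of the core thus rested on replicate 7. Psma5 and Psmb7 went together (r = 0.84, Spearman rho = 0.73; r = 0.74 without replicate 7), and Psma5 and Psma1 ran opposite (r = -0.80, rho = -0.65; r = -0.60 without replicate 7). They were picked as the highest and lowest core pairs among genes with a promoter sequence, and the highest of all was Psma4 with Psma7, at 0.87.

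**Figure D5:**
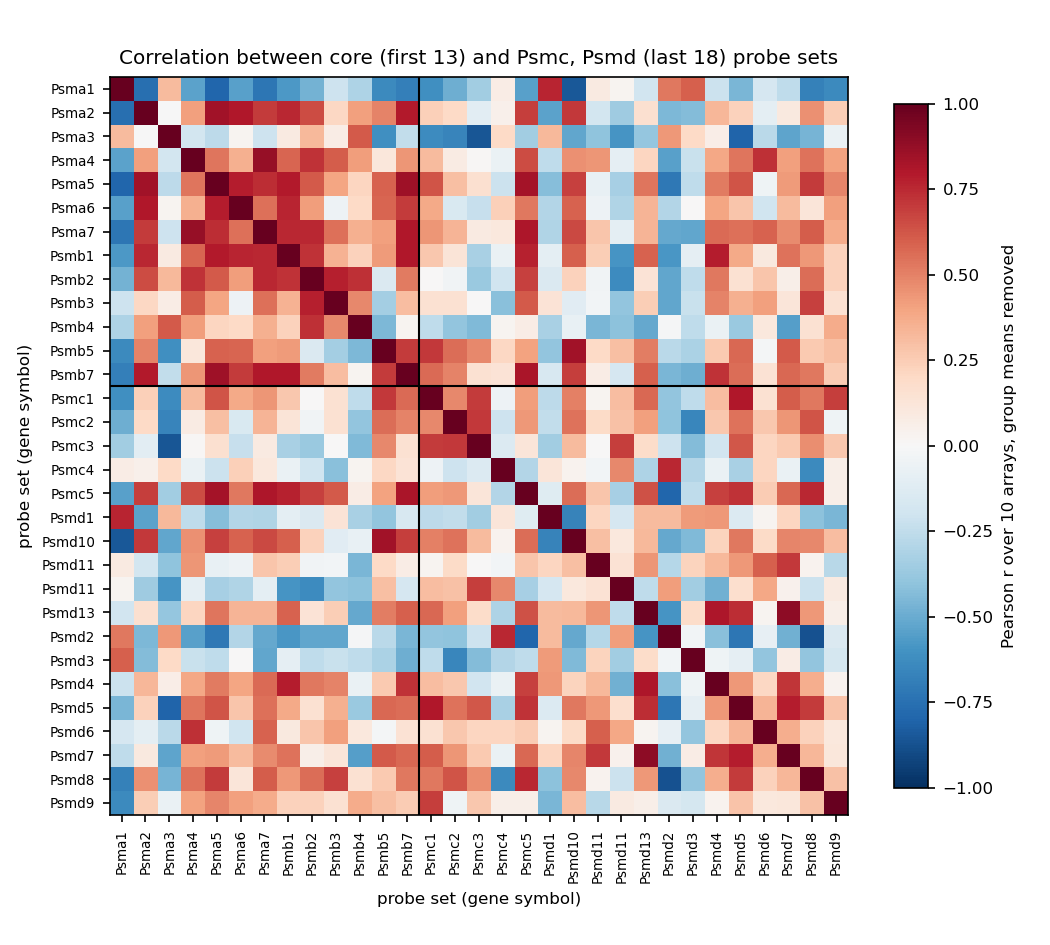
Pearson correlation over 10 arrays, with group means removed, between the 13 core probe sets (first) and the 18 Psmc and Psmd probe sets (last). The core block has a median of 0.41 and holds 1 row, Psma1, that is mostly below 0.

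The promoters of these 3 genes are shown because, among core genes with a promoter sequence at hand, they formed the pairs whose signals ran most alike and most opposite. Each line gives the 250 bases before the gene's start on its own strand (RefSeq, GRCr8), with capitals marking CCAAT or GGGCGG read on either strand.
Psmb7 (chr3:42827471-42827720, minus strand): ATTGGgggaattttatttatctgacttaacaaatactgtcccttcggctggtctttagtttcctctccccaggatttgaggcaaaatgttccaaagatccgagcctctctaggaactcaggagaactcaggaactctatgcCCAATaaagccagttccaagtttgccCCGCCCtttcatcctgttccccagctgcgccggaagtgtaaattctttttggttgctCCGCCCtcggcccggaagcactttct
Psma5 (chr2:198584255-198584504, plus strand): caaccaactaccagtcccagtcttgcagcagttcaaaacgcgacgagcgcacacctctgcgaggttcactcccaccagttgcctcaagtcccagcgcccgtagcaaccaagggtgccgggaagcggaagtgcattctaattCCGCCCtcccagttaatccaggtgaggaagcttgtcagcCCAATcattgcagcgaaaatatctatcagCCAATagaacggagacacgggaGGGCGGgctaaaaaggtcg
Psma1 (chr1:177887858-177888107, minus strand): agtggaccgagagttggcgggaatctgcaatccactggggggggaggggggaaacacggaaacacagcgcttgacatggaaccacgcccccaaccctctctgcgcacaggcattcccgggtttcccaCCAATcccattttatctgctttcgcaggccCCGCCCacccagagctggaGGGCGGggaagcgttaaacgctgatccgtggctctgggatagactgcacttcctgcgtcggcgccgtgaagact

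Psmb7 and Psma5 each held 2 CCAAT and 2 GGGCGG matches, and Psma1, which ran opposite, held 1 and 2, so the same short motifs stood before all 3. Promoter sequences were at hand for 41 of the 43 genes, leaving out Psma7 and Psmd6. CCAAT, the site of the factor NF-Y, occurred on either strand in 21 of the 41 (51.2%), against 34.0% of 33469 promoters of the same length. GGGCGG, the GC box of Sp1-type factors, occurred in 28 (68.3%) against 30.5%. The 33469 are all promoter entries at hand, whether or not the gene was measured here. Shares among other genes with bright signals were not computed, so the gaps cannot be called particular to proteasome genes. The core of the antioxidant response element, to which Nfe2l1 and Nfe2l2 bind, was searched as TGACNNNGC, found in 6 (14.6%) against 10.1%, and as TGAGNNNGC, found in 9 (22.0%) against 14.2%. These forms differ at the fourth base, a promoter can hold both, and matches of different motifs may share bases at their ends. A match is a description of the letters and not a binding site.

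Probe sets are short sequences near the end of a transcript, and several members have close copies in the genome. The GRCr8 gene table lists pseudogenes or paralogs of Psma2, Psma3, Psma5, Psma6, Psma7, Psmb3, Psmb4, Psmb7, Psmc4, Psmd1, Psmd8, Psme1, Psme2 and Psmg4, so the signals of these probe sets are uncertain as to source. Another 6 probe sets list a matching symbol beside other symbols, for Psma3, Psmb6 and Psme3, and were not members. Psma8, Psmb11, Psmc6, Psmd12 and Psmd14 were not analysed here. In whole kidney, fewer cells of a type and less RNA per cell cannot be told apart.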

How the data were processed

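Total RNA of 10 fetal kidney samples was measured on 1-colour Affymetrix arrays. The deposited values were linear intensity values, 1 MAS5 signal per probe set and array per the submitters' processing notes; version and settings are not given in the sources used here. MAS5 combines the probes of each set into a signal and brings arrays to a common scale. The trimmed mean of every array (2% off each end) was 250.04 to 250.05, so the deposited scaling was kept. Depth does not apply to arrays, and their number limits the precision.

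Symbols came from GEO's platform annotation; all 46 members matched the GRCr8 gene table by Entrez ID. Values were taken as log2(signal + 16), which understates differences of dim genes. The 57 control probe sets were left out, and a probe set was tested when it reached the 40th percentile of the array on at least 5 arrays (9601 probe sets). Groups were compared in limma 3.58.1 under R 4.3.3 (lmFit, eBayes with trend), two-sided, adjusting by Benjamini-Hochberg over all tested probe sets. The steps were tested on simulated data. The balances of Psmb10 to Psmb7 and of Psmb8 to Psmb5 were compared by exact permutation, with p adjusted over both.

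Probe sets named with values for every array were the 2 with the smallest p in each class, all with an unadjusted p under 0.05, the immunoproteasome subunits and their counterparts, Psme1, Psme2, genes whose probe sets differed in sign, and partner genes with an unadjusted p under 0.05. B2m, Pomp, Vcp, Nfe2l1, Psmb2, Psma7 and Psma1 were added after their values were seen. Members, lists and rules were chosen with earlier results of these data known. Alternatives were quantile or median normalization, a pseudocount of 1 or 32, no filter or a stricter one, no intensity trend, array weights, covariates (Gapdh ratio; mean liver signal), the brightest probe set per gene and leaving out each array. Figures used Python 3.11.15 and matplotlib 3.10.9.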

Additional observations from a re-analysis of the deposited data

Results flagged for a closer look

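In 4 of 92 groups of 5 arrays, 1 for each probe set and group, a single array lay far from the other 4 by Dixon's test, where chance alone marks about 5% of groups. Psmd5 was 744.1 in hyperinsulinemic replicate 6, against 668.7 to 689.3 in the other hyperinsulinemic arrays, and Psmd8, a 19S lid subunit, was 927.3 in the same array against 724.9 to 775.1. Psme2 was 531.3 in normal replicate 4, against 494.0 to 499.8 in the other normal arrays. Psmg4 was 444.2 in normal replicate 5, against 508.4 to 527.9.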

How the results depend on the processing

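The count of proteasome probe sets at an adjusted p of 0.05 was 0 under every alternative run, leaving out each array included. The count at an unadjusted p of 0.05, which was 0, became 1 with array weights (Psme1, log2 difference -0.14, limma unadjusted p = 0.0271), 1 with the Gapdh ratio as a covariate (Psme1, -0.12, 0.0297) and 1 with the mean liver signal as one (Psmf1, 0.23, 0.0194). It ran from 0 to 2 when each array was left out: Psme1 (0.0323) and Psmg1 (0.0474) passed without hyperinsulinemic replicate 10, and Psmd7 (0.0256) without normal replicate 4. The cause was not tested. The median log2 difference of the set ranged from 0.0014 to 0.052 with each array left out, being lowest without hyperinsulinemic replicate 10 and highest without replicate 7. The balance of Psmb10 to Psmb7 ranged from 0.014 to 0.12.

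Signs of some differences turned. With array weights they were -0.0086 for Psmb7, 0.10 for Psmc3ip and -0.0062 for Psmb5, and with the Gapdh ratio -0.016 for Psmb5. With the liver score they were -0.034 for Psmb3, -0.0064 for Psmb7, -0.067 for Psmb10, 0.079 for Psme3ip1, 0.084 for Psmc3ip and -0.015 for the second Psme4 probe set. With each array left out, the ranges were -0.0061 to 0.058 for Psmb3, -0.042 to 0.061 for Psmb5, -0.024 to 0.057 for Psmb7, -0.072 to 0.090 for Psmc3ip and -0.097 to 0.041 for Psme3ip1. No paired analysis was possible because the replicate numbers of the groups (6 to 10 and 1 to 5) are not shared. Detection calls were not used, so the percentile filter stands in for a background level.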
